A study of Mus musculus with 3 samples.

Results

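NR2F2 (COUP-TFII) belongs to the nuclear receptors, transcription factors that bind DNA, and its binding at 10 genes of blood and lymphatic vessel identity and signalling was read from ChIP-seq of whole mouse testes. The genes were Ephb4, Efnb2, Nrp1, Nrp2, Kdr, Flt1, Flt4, Prox1, Angpt1 and Tek. A peak was taken as a member when the nearest transcription start site (TSS) was that of one of these genes, or when its nearer edge lay within 100 kb of the TSS. This rule found 16 of the 10069 peaks in the series, at 8 of the 10 genes, and no peak at Flt4 or Tek. By the same rule 70.4% of 21000 protein-coding genes had a peak, so a member with a peak was not unusual. With predicted transcripts included as well as curated ones, the rule found 10 peaks at 7 genes. The testes were taken at E14.5 (embryonic stage) from CD-1 mice, freed of the mesonephros and frozen without sorting, so they held every cell type of the organ. For each of 2 independent immunoprecipitations of NR2F2, which the study calls biological replicates, chromatin from 30 pooled testes was listed. They were sequenced beside 1 input (chromatin without immunoprecipitation). All animals were of one stock, with no mutant or treated group, so the only comparison was ChIP against input. The counts carry no label of cell type and do not show which cells of the testis, endothelial or other, held the bound NR2F2, so binding in few cells and weak binding in many cells cannot be told apart.

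NR2F2 is best known in vessels as the factor that gives veins their identity, where it holds down the Notch pathway and the artery genes. Efnb2 encodes the artery ligand ephrin-B2 and Ephb4 its receptor on veins, and the neuropilins Nrp1 and Nrp2 are co-receptors of VEGF and of class 3 semaphorins, with Nrp1 mainly on arteries and Nrp2 on veins and lymphatics. Kdr, Flt1 and Flt4 encode the VEGF receptors VEGFR2, VEGFR1 and VEGFR3, Prox1 is the homeodomain factor that sets lymphatic identity and a known partner of NR2F2, and Angpt1 is the ligand of the endothelial receptor Tek (TIE2).

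Every library was counted over the same peaks, each 300 bp wide, in coordinates of the mouse genome mm10. The counts at peaks summed to 73251 in the input, 426784 in ChIP replicate 1 and 364261 in ChIP replicate 2, and the median peak held 7, 37 and 31 counts. The peaks had been called on the merged ChIP reads, so a high ChIP count was part of how they were chosen, which favours a ChIP count above the input count. Totals at peaks are not sequencing depths, so a ratio of ChIP to input also carries the unknown difference in depth between the libraries.

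The sequences that bear on the results are shown first, each read from the plus strand of mm10, 5′ to 3′. Nuclear receptors of this family bind the half-site AGGTCA or GGGTCA, and NR2F2 motifs often carry the longer form AGAGGTCA or AGGGGTCA. Capitals mark each such copy, on either strand, so a copy on the minus strand appears as its reverse complement. The Ephb4 peak is shown because it had the highest ChIP counts of the 16, the Efnb2 intron peak because the longer form lies at its centre, and the distal Efnb2 peak because it holds a row of copies.
Ephb4, chr5:137349622-137349921: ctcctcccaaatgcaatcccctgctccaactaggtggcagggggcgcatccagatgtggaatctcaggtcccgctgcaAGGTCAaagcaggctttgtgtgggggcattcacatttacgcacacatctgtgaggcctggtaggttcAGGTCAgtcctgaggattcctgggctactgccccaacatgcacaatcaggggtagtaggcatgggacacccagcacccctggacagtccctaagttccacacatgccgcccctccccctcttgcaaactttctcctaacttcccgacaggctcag
Efnb2 intron, chr8:8658850-8659149: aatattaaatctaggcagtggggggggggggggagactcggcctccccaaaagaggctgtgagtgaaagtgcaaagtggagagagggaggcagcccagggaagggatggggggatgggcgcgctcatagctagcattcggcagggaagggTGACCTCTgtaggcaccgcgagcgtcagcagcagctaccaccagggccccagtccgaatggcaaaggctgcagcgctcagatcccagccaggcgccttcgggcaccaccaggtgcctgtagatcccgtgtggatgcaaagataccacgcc
Efnb2 distal, chr8:8495048-8495347: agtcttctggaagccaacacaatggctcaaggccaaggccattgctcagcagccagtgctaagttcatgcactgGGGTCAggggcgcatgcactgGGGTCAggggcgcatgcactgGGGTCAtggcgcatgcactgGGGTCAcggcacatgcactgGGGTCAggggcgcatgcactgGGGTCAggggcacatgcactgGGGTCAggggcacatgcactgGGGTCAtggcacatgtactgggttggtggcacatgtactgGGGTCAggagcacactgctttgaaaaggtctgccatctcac

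The peak with the highest summed ChIP count of the remaining genes follows, among peaks whose nearest TSS was that of the gene. In the Angpt1 peak the capitals also mark a run of the related repeat AGTTCAAAGTTCA. For Kdr only the bases outside the untranslated region are given, with no copy in them, and for Nrp1 the second strongest peak is given because the strongest overlaps an untranslated region of a predicted transcript.
Nrp1, chr8:128357856-128358155: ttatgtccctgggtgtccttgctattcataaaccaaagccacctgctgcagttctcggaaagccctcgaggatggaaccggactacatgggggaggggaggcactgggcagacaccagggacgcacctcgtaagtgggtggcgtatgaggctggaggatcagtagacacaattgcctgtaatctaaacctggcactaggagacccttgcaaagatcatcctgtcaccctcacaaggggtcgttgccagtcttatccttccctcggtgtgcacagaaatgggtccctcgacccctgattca
Nrp2 distal, chr1:62591652-62591951: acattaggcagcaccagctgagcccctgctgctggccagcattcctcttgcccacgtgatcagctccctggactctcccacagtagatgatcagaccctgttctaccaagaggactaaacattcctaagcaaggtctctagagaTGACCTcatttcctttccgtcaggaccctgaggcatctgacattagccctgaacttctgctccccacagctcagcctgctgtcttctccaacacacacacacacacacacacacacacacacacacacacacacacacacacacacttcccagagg
Kdr, chr5:75978007-75978168: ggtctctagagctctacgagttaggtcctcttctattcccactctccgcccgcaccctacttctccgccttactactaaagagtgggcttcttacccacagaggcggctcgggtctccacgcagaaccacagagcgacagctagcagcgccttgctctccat
Flt1, chr5:147645110-147645409: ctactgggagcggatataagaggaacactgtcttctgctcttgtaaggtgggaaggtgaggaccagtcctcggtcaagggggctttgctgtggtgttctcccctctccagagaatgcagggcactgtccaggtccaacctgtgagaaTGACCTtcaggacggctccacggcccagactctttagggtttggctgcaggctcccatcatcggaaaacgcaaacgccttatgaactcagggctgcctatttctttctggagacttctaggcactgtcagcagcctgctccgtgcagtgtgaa
Prox1, chr1:190067513-190067812: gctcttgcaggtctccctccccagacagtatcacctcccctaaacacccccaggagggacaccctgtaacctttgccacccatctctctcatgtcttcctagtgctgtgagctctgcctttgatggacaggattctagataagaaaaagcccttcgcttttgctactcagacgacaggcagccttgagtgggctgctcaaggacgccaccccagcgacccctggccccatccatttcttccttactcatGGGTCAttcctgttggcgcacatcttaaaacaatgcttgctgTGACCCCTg
Angpt1, chr15:42386800-42387099: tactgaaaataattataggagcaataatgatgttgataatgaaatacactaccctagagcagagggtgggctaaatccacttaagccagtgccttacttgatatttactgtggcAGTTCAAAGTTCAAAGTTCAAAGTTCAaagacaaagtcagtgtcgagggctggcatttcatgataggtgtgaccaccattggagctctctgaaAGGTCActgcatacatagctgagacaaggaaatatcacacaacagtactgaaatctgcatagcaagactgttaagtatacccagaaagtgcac

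**Figure D1:**
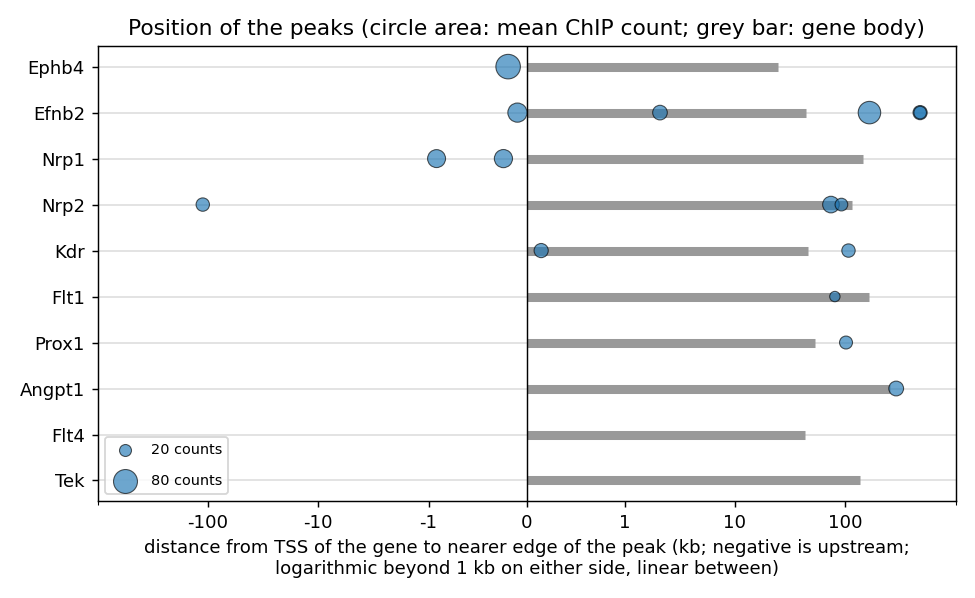
Position of the 16 peaks relative to the TSS of each gene (x axis, kb to the nearer edge, linear within 1 kb and logarithmic beyond, negative upstream), with circle area for the mean ChIP count and a grey bar for the gene body. Ephb4, Efnb2, Nrp1 and Kdr had a peak within 1 kb of the TSS, whereas every peak of Nrp2, Flt1, Prox1 and Angpt1 was over 50 kb away.

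The receptor and ligand of the ephrin pair carried the strongest member peaks. Ephb4 (gene identifier 13846, chromosome 5, 137350109 to 137374522, plus strand) had 1 peak, 188 bp upstream of its TSS and outside any gene. It held 11 input counts, 100 counts in ChIP replicate 1 and 68 in replicate 2, a ChIP mean of 84.0 ± 22.6 (SD, n = 2). Each ChIP count was the highest of the 16 member peaks in its library, and the sum was above that of 96.0% of all peaks and of 95.3% of the peaks within 1 kb of a TSS. The peak holds 2 copies of AGGTCA on the plus strand, and the centre of one lies 2 bp from the centre of the peak.

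Efnb2 (13642, chromosome 8, 8617434 to 8661242, minus strand) had 5 peaks, the most of the members by curated TSSs. With predicted transcripts included it kept 2, as many as Nrp1 and Nrp2, and the strongest of the 5 was then nearest to another TSS. The promoter peak (chr8:8661335-8661634) lay 93 bp upstream of the TSS, outside the gene, with 9 input counts, 47 in ChIP replicate 1 and 56 in replicate 2. Its sum was above that of 79.7% of all peaks, and it holds a single copy of GGGTCA 2 bp from its centre. The intron peak, in intron 1 and 2093 bp downstream of the TSS, held 7 input counts and 37 and 23 ChIP counts. Its sum was below the middle of all peaks, above 39.1% of them, and the half-site of the longer form AGAGGTCA lies 3 bp from its centre.

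The strongest of the 5 Efnb2 peaks was far from the promoter. It lay outside genes on the 3′ side, 165895 bp from the TSS, with 13 input counts, 84 in ChIP replicate 1 and 57 in replicate 2, a ChIP mean of 70.5 ± 19.1 (SD, n = 2). Its sum was above that of 92.4% of all peaks and of 93.8% of the peaks over 1 kb from a TSS. The input was high there too, above that at 92.8% of peaks, and the part of the repeated sequence in these counts was not tested. The peak holds 9 copies of GGGTCA on the same strand, and successive copies start 21 bp apart in 5 steps, 20 bp apart in 2 steps and 40 bp apart in 1 step. At least 9 copies were found in 33 of 10064 placed peaks (0.328%), and 27 of these held more.

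A pair of weaker Efnb2 peaks lay outside genes a further stretch to the 3′ side, 477644 and 478147 bp from the TSS and 203 bp apart. The nearer one (chr8:8183299-8183598) held 4 input counts, 26 in ChIP replicate 1 and 30 in replicate 2. The farther one (chr8:8182796-8183095) held 3 input counts, 20 and 24 ChIP counts. At 3 input counts the raw ratio of the farther peak was wide, 6.67 in replicate 1 (95% exact interval 1.98 to 35.0) and 8.0 in replicate 2 (2.43 to 41.5), and these intervals cover counting error only. The nearer peak holds a copy of GGGTCA on the minus strand, and the farther peak holds none.

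The neuropilin genes differed in where their peaks lay. Both Nrp1 peaks (18186, chromosome 8, 128359073 to 128505476, plus strand) were upstream of the TSS and outside the gene as curated, 382 bp from each other. The nearer (chr8:128358538-128358837), 236 bp from the TSS, held 11 input counts, 54 in ChIP replicate 1 and 38 in replicate 2. The other, 918 bp from the TSS, held 10 input counts, 54 and 36 ChIP counts. The pair thus had close to the same counts in every library, above 72.5% and 71.0% of all peaks, but only the nearer holds copies of AGGTCA, 104 and 142 bp from its centre.

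No Nrp2 peak (18187, chromosome 1, 62703317 to 62818692, plus strand) lay near the start of the gene. A peak in intron 12, 74267 bp downstream of the TSS (chr1:62777584-62777883), held 9 input counts, 36 in ChIP replicate 1 and 41 in replicate 2, and is the strongest of the 3. A peak in a coding exon of some Nrp2 transcripts, which is intron 15 of others, lay 92406 bp downstream (chr1:62795723-62796022) with 7 input counts, 27 and 18 ChIP counts. For both of these the nearest TSS was that of the non-coding gene 4930487H11Rik, 16849 and 991 bp away, and both entered by distance to Nrp2 alone. The distal peak, 111366 bp upstream, lay in intron 22 of Pard3b, a cell polarity gene, with 7 input counts, 24 in ChIP replicate 1 and 26 in replicate 2. Of these 3 peaks, the distal one alone holds a copy of AGGTCA, 3 bp from its centre.

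Among the VEGF receptor genes, Kdr (16542, chromosome 5, 75932827 to 75978455, minus strand) had 2 peaks. The first overlapped a coding exon and began 149 bp downstream of the TSS (chr5:75978007-75978306), with 6 input counts, 26 in ChIP replicate 1 and 30 in replicate 2. The other lay outside genes on the 3′ side, 107103 bp from the TSS (chr5:75871053-75871352), with 7 input counts, 31 and 19 ChIP counts. Both were below the middle of all peaks, above 33.8% and 25.3% of them. The distal peak holds the longer form AGAGGTCA, 75 bp from its centre, and the promoter peak holds no copy of either half-site.

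Flt1 (14254, chromosome 5, 147561604 to 147726011, minus strand), which encodes the VEGF receptor that also acts as a decoy, had 1 peak in intron 12, 80602 bp downstream of the TSS. It was the weakest of the 16, with 9 input counts, 20 in ChIP replicate 1 and 10 in replicate 2, and 1.5% of all peaks had a lower summed ChIP count. The raw ratio to input was 2.22 in replicate 1 (95% exact interval 0.967 to 5.54) and 1.11 in replicate 2 (0.406 to 3.09), so both intervals include equal raw counts in ChIP and input. The peak holds a copy of AGGTCA centred on the centre of the peak.

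Flt4 (14257, chromosome 11, 49609679 to 49652739, plus strand), the VEGF-C receptor of lymphatic vessels, had no peak by the rule. The nearest peak lay 102344 bp from its TSS, just past the limit, and was nearest to Cnot6, with 3 input counts, 35 in ChIP replicate 1 and 34 in replicate 2. Peaks just outside the limit were also present at Flt1 (100548 bp, nearest to Pomp, 9 input counts, 27 and 37 ChIP counts) and at Kdr (101209 bp, nearest to Srd5a3, 4 input counts, 32 and 19 ChIP counts). The member peak closest to the limit on its inner side was the Nrp2 exon peak at 92406 bp.

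The lymphatic regulator Prox1 (19130, chromosome 1, 190118035 to 190170827, minus strand) had 1 peak, outside genes on the 3′ side and 101703 bp from the TSS. With predicted transcripts included, this peak was nearest to another TSS and Prox1 had 0 peaks. It held 3 input counts, 26 in ChIP replicate 1 and 21 in replicate 2. The raw ratio was 8.67 in replicate 1 (95% exact interval 2.66 to 44.7) and 7.0 in replicate 2 (2.09 to 36.7), the width of which comes from the low input count. The peak holds GGGTCA 102 bp from its centre and the longer form AGGGGTCA at its edge, 144 bp from the centre. No peak lay at the Prox1 promoter.

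In the angiopoietin pair, the ligand had a peak and the receptor had none. Angpt1 (11600, chromosome 15, 42424667 to 42676977, minus strand) had 1 peak outside genes on the 3′ side, 289878 bp from the TSS, with 7 input counts, 32 in ChIP replicate 1 and 29 in replicate 2. It was the most AT-rich of the 16, with 40.3% GC. Besides 1 copy of AGGTCA 60 bp from the centre, it holds AGTTCAAAGTTCA in 3 overlapping positions on the plus strand, at offsets of -29, -22 and -15 bp from the centre. Tek (21687, chromosome 4, 94739289 to 94874976, plus strand) had its nearest peak 135912 bp away, at Plaa, with 6 input counts, 23 in ChIP replicate 1 and 35 in replicate 2.

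**Figure D2:**
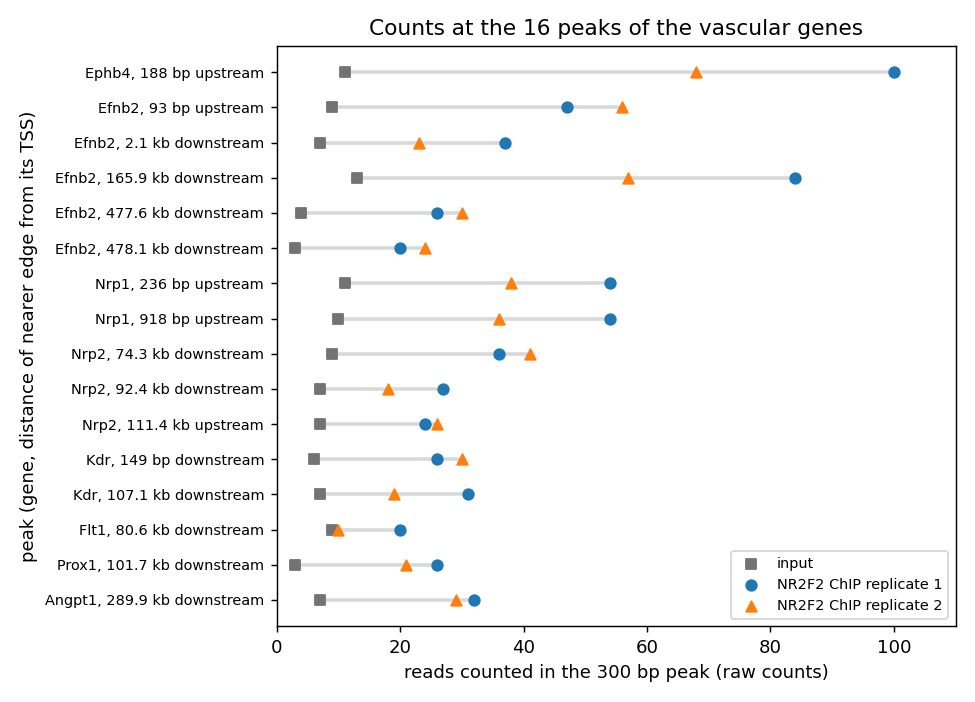
Raw counts at the 16 peaks (x axis, reads per 300 bp peak) in the input (squares) and in NR2F2 ChIP replicates 1 (circles) and 2 (triangles), with grey lines joining the lowest and the highest. Both ChIP counts lie above the input at all 16 peaks, from 100 and 68 at Ephb4 down to 20 and 10 at Flt1, where the lower replicate sits next to the input count of 9.

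Ordered by the strongest peak of each gene, the ChIP mean fell from 84.0 at Ephb4 and 70.5 at Efnb2 to 46.0 at Nrp1, 38.5 at Nrp2, 30.5 at Angpt1, 28.0 at Kdr, 23.5 at Prox1 and 15.0 at Flt1. The replicate counts of Ephb4 and Efnb2 overlapped, as did those of Nrp1 and Nrp2 and those of Angpt1 and Kdr, and Kdr and Prox1 shared the value 26. Those of Efnb2 and Nrp1, of Nrp2 and Angpt1, and of Prox1 and Flt1 did not overlap. With 2 replicates and peaks picked for their strength, this order is a description.

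Set beside all peaks, the 16 member peaks were ordinary in strength. Their ChIP counts ran from 20 to 100 in replicate 1, with a median of 31.5 against 37 for all peaks, and from 10 to 68 in replicate 2, with a median of 29.5 against 31. The input ran from 3 to 13 with a median of 7, the same as over all peaks. With 0.5 added to each count, the members had a median ratio of ChIP to input of 4.87 (replicate 1) and 4.10 (replicate 2), which averages to 4.48 ± 0.547 (SD, n = 2), against 4.75 ± 0.505 over all peaks. Within each replicate the member median lay below that of all peaks, at 4.87 against 5.11 and at 4.10 against 4.39, and this difference was not tested. ChIP exceeded input in both replicates at 16 of 16 member peaks and at 10059 of all 10069, which the calling of peaks on the ChIP reads favours.

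Whether any member peak departed from the typical ratio of ChIP to input was tested with edgeR's quasi-likelihood test over all peaks. This test does not need the sequencing depths, because it centres the ratio on that of the typical peak. No member peak passed at a Benjamini-Hochberg adjusted p under 0.05, 0 of 16 above and 0 of 16 below. Over all peaks, 1.53% were called above and 0.0497% below. At an unadjusted p under 0.05, 1 member peak (6.25%) passed, against 10.4% of all peaks, and DESeq2 called 0 of the 2 member peaks to which it gave an adjusted p.

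The log2 ratio relative to the typical peak ran from -1.58 to 0.65 over the members, with a median of -0.17 against 0.02 over all peaks, and 6 of 16 were above 0. Prox1 had the highest value, 0.65 ± 0.83 (SE), with an edgeR adjusted p of 0.897. Ephb4 followed at 0.61 ± 0.44 (edgeR adjusted p = 0.719, or 0.93 and 0.351 among peaks with at least 10 input counts), and its input count of 11 was itself above that at 83.6% of peaks. The distal Efnb2 peak with the row of GGGTCA copies was at 0.12 ± 0.44 (edgeR adjusted p = 0.971, or 0.44 and 0.823 among peaks with at least 10 input counts), closer to the typical peak than its ChIP count. Flt1 was the lowest at -1.58 ± 0.66, with 0.258% of all peaks below it, and the member that passed without adjustment in edgeR. Its edgeR adjusted p of 0.309 ranged from 0.274 to 0.496 over the edgeR alternatives that tested it. DESeq2 gave Flt1 no adjusted p, and 0 of 16 members had an unadjusted DESeq2 p under 0.05. The values among peaks with at least 10 input counts are relative to the typical peak of that subset, not of all peaks. The input count limits each of these values, and an adjusted p above 0.05 does not show that a peak equals the typical one.

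**Figure D3:**
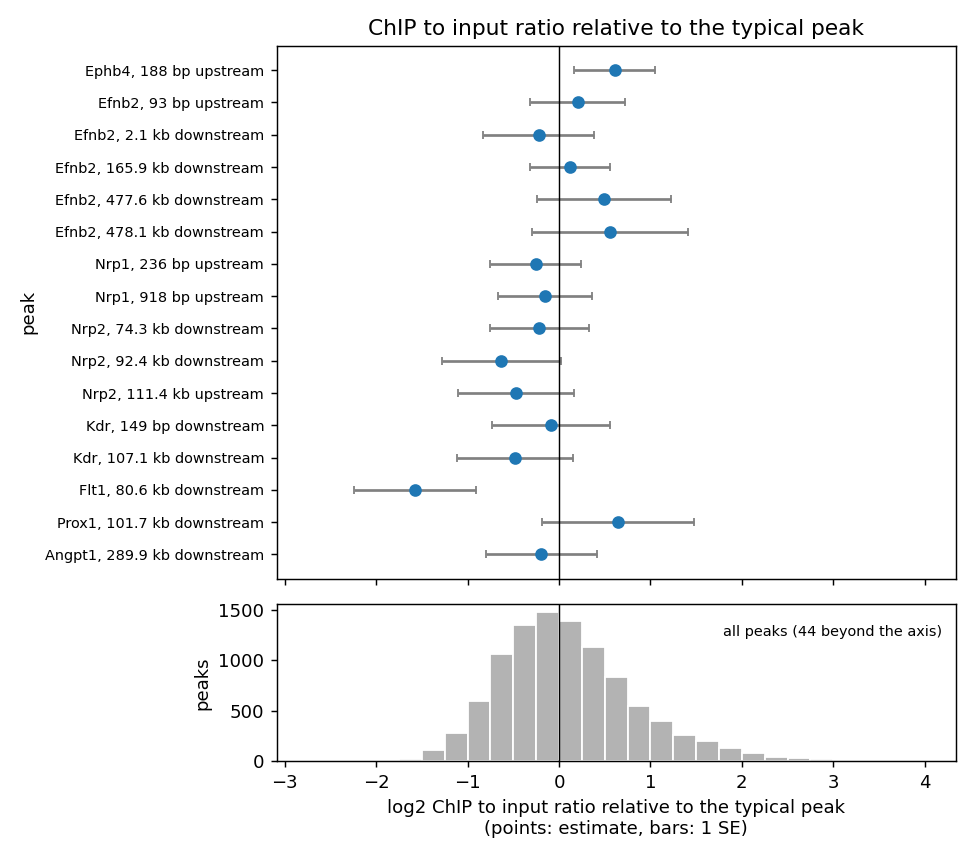
Log2 ratio of ChIP to input relative to the typical peak for the 16 member peaks (upper panel, points with bars of 1 SE from the edgeR fit) and for all peaks (lower panel, number of peaks in each bin, with 44 beyond the axis). The members run from -1.58 at Flt1, which lies in the lower tail with 26 of the 10069 peaks below it, to 0.65 at Prox1, and the 15 others lie in the bulk of the peaks.

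The ChIP replicates were compared at each peak by an exact two-sided binomial test with the totals at peaks as the expected share. This test covers counting error only and compares libraries. It called 0 of 16 member peaks, with a lowest exact binomial adjusted p of 0.658, against 0.0993% of all peaks called, which does not show that the replicates were equal there. Without adjustment the count was also 0 of 16, against 8.83% over all peaks. Replicate 1 held the higher raw count at 10 of 16 member peaks (62.5%), against 69.3% of all peaks. Replicate 2 was the higher at the promoter peaks of Efnb2 and Kdr, at both far Efnb2 peaks, and at the intron 12 and distal peaks of Nrp2.

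By the full rule, 8 of the 10 members (80%) had a peak against 70.4% of protein-coding genes, and the share over the nearest TSS alone has to be read with the size of each gene's ground. At 8 of the 10 members at least 1 peak had its nearest TSS in the gene, against 33.2% of 21000 protein-coding genes. The stretch of genome closest to the TSS of a gene had a median of 228 kb for the members and 42.5 kb for all protein-coding genes. Of the 7 members with at least 100 kb of such ground, 6 (85.7%) had a nearest peak, against 45.6% of 4922 genes of that size, and the same 6 had a peak by the full rule, against 57.6%. Within 100 kb of the TSS, which does not depend on that ground, 6 of 10 members had a peak against 69.7% of all genes, and within 1 kb 4 of 10 had one against 28.1%. These genes were picked with results of the data known, so the shares are descriptions.

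Per length of that ground, the peaks were densest at Nrp1, with 49.4 peaks per Mb over 40.5 kb, and at Ephb4, with 14.3 per Mb over 70.1 kb. Efnb2 had 7.64 and Kdr 7.08 per Mb, against 3.82 over the genome. Flt1 (4.65), Prox1 (4.16) and Nrp2 (3.04) were near the genome value, and Angpt1 was below it at 1.54 per Mb. The 5 peaks of Efnb2 therefore fell in the widest ground of all members, 654.6 kb, and each of these densities rests on 1 to 5 peaks. Of all peaks 58% lay within 1 kb of a TSS, so 1 promoter peak in little ground already gives a high density. At Nrp1 and Ephb4 every nearest peak lay within 1 kb of the TSS, and the densities were not corrected for this. Flt4 had no peak over 36.6 kb and Tek none over 131.8 kb.

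In base composition the member peaks held a median of 55% GC against 60.7% over all placed peaks, and 6 of 16 (37.5%) lay within 1 kb of a TSS against 58.0%. The ratio of observed to expected CpG had a median of 0.375 against 0.640. The promoter peaks of Efnb2 (71.0% GC, ratio 0.744) and Kdr (63.3% GC, ratio 0.755) were rich in CpG. The Ephb4 peak was not, with 57.3% GC and a ratio of 0.207, although it lies next to a TSS.

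The longer motif form, AGAGGTCA or AGGGGTCA on either strand, was present in 3 of 16 member peaks (18.75%), against 10.5% of all placed peaks, 6.18% of those within 1 kb of a TSS and 16.4% of those farther away. The 3 were the intron peak of Efnb2 and the distal peaks of Kdr and Prox1 printed or named above. The half-site AGGTCA or GGGTCA, which the longer form contains, was present in 11 of 16 (68.75%), against 58.9% of all peaks, 48.2% of those within 1 kb of a TSS and 73.75% of those farther away. The 5 peaks without one were the farther of the far Efnb2 pair, the Kdr promoter peak, the Nrp1 peak at 918 bp, and the intron and exon peaks of Nrp2. A match describes the letters only, and its absence says nothing of the factor.

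Where a half-site was present, it often lay at the centre of the peak. Of the 11 member peaks with a copy, 6 (54.5%) had one within 10 bp of the centre, against 1011 of 5928 (17.1%) over all placed peaks with a copy. These 6 were at Ephb4, at 3 of the Efnb2 peaks, at Flt1 and at the distal Nrp2 peak. A central copy was thus present at the strongest member peak, Ephb4, and at the weakest, Flt1. The centre was set by the peak caller on the ChIP reads, and the row of 9 copies in the distal Efnb2 peak would put a copy near almost any centre.

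**Figure D4:**
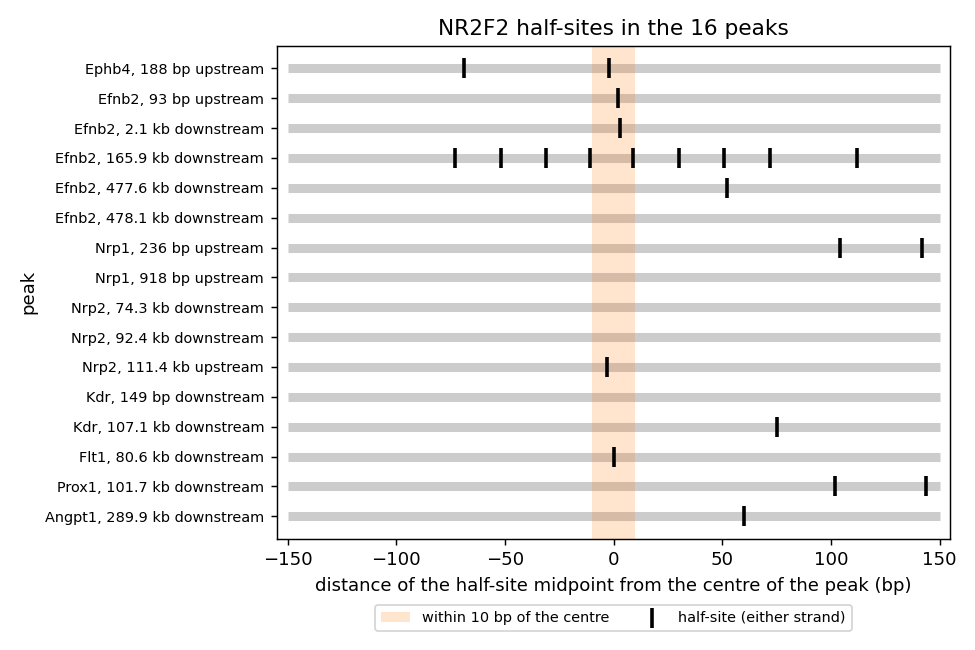
Position of each half-site (AGGTCA or GGGTCA, either strand, black ticks) in the 16 peaks, by distance of its midpoint from the centre of the peak in bp, with the shaded band for 10 bp on either side. Of the 11 peaks with a copy 6 have one in the band, and the row of 9 ticks, most of them 20 or 21 bp apart and the last 40 bp from its neighbour, is the distal Efnb2 peak.

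Direct repeats of the half-site with 0 to 5 bases between the copies, the form bound by receptor dimers, were present in 0 of 16 member peaks and in 450 of all peaks (4.47%). When AGTTCA and GGTTCA were also allowed as copies, with 1 base between, the Angpt1 peak was the 1 member with a repeat (6.25%), against 280 of all peaks (2.78%). This search was added after the sequences were seen. In the RefSeq promoters of GRCm38 (250 bases before to 50 after the TSS), 10 promoters of all members but Angpt1 held the longer form in 0 cases, against 2.63% of 32851 promoters, and a half-site in 4 (40%), against 27.5%. The 4 were those of Efnb2, Nrp1, Kdr and Flt4. The copies in the Efnb2 and Nrp1 promoters are also in the peaks next to them. The copy in the Kdr promoter lies outside the Kdr promoter peak, which holds none, and the copy in the Flt4 promoter had no peak within the limit.

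The same counts were taken for other genes of these pathways, to be read against the 1.53% of all peaks called above, the 0.0497% called below and the 10.4% that passed unadjusted in edgeR. Of 10 ligands and partners of the VEGF and angiopoietin receptors, 5 (50%) had a nearest peak, against 33.2% of protein-coding genes, at 5 peaks in all, with a median log2 ratio of -0.36. Of these 5 peaks, 0 were called by edgeR and 1 had an unadjusted edgeR p under 0.05, and DESeq2 gave none of them an adjusted p. The genes of this list hold a median of 96.8 kb of ground, against 42.5 kb. Within 100 kb of the TSS 8 of 10 (80%) had a peak, against 69.7%, and within 1 kb 2 of 10 (20%), against 28.1%. Ccbe1, which helps to process VEGF-C, had the highest summed ChIP count of them, at a peak 4785 bp downstream of the TSS with 3 input counts, 44 in ChIP replicate 1 and 41 in replicate 2. Its raw ratios were 14.7 (95% exact interval 4.70 to 73.8) and 13.7 (4.36 to 69.0). Peaks within 1 kb of the TSS were present at Vegfb (7 input counts, 24 and 30 ChIP counts) and at Vegfc, the ligand of Flt4 (6 input counts, 25 and 34 ChIP counts). Vegfd, Pgf, Angpt2, Angpt4 and Tie1 had none nearest to them.

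Of 11 semaphorin, plexin and ephrin genes, 7 (63.6%) had a nearest peak, against 33.2% of protein-coding genes, at 10 peaks with a median log2 ratio of 0.40. These genes hold a median of 131.8 kb of ground, and within 100 kb 72.7% of them had a peak against 69.7% of all genes, and within 1 kb 18.2% against 28.1%. Of these 10 peaks, 0 were called by edgeR (1.53% of all peaks above and 0.0497% below in edgeR), and 2 had an unadjusted edgeR p under 0.05, against 10.4% of all peaks. DESeq2 called 0 of the 1 to which it gave an adjusted p. The strongest was at Sema3f, a semaphorin that signals through Nrp2, 7980 bp downstream of the TSS with 9 input counts, 90 in ChIP replicate 1 and 80 in replicate 2. Peaks within 1 kb of the TSS were at the plexin Plxna2 (8 input counts, 33 and 29 ChIP counts) and at Ephb3 (11 input counts, 40 and 40 ChIP counts). Sema3g, Plxna1, Efna1 and Ephb2 had none.

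The next list held 13 genes, those of the Notch pathway, its artery targets and the forkhead factors Foxc1 and Foxc2. Of these, 9 (69.2%) had a nearest peak, against 33.2% of protein-coding genes, at 13 peaks with a median log2 ratio of 0.62. The genes of this list hold a median of 36.2 kb of ground, against 42.5 kb for all protein-coding genes. Within 100 kb of the TSS 11 of 13 (84.6%) had a peak, against 69.7%, and within 1 kb 3 of 13 (23.1%), against 28.1%. The list was chosen with results of the data known, so these shares are descriptions. Of the 13 peaks, 1 was called above the typical peak by edgeR, against 1.53% of all peaks (2 at an unadjusted p under 0.05, against 10.4%), at Dll4, the Notch ligand of arteries and sprouting tip cells. The Dll4 peak lay 5966 bp upstream of the TSS and held 2 input counts, 108 in ChIP replicate 1 and 111 in replicate 2. Its raw ratios were 54.0 (95% exact interval 14.6 to 451.6) and 55.5 (15.0 to 464). Its log2 ratio stood 3.44 ± 0.65 (SE) above that of the typical peak, with an edgeR adjusted p of 4.925e-05. That adjusted p was 0.0408 with the size factors of DESeq2 in edgeR and 0.0770 with DESeq2 itself, where the call was lost at a log2 ratio of 3.44 ± 1.16 (SE). Hey1, Hey2 and Rbpj, which encode effectors of Notch, had peaks within 1 kb of the TSS, with 9, 3 and 8 input counts, 34, 29 and 57 counts in ChIP replicate 1 and 33, 18 and 65 in replicate 2. Notch1, Dll1, Jag2 and Foxc2 had none nearest to them.

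Of 18 markers and regulators of endothelial cells, 6 had a nearest peak (33.3%, against 33.2% of protein-coding genes), at 8 peaks with a median log2 ratio of -0.71. Of these 8 peaks, 0 were called by edgeR (1.53% of all peaks above and 0.0497% below in edgeR), and 0 had an unadjusted edgeR p under 0.05, against 10.4% of all peaks, too few peaks to tell the list from the rest. DESeq2 gave none of the 8 an adjusted p. Smarca4, a subunit of chromatin remodelling complexes that every cell type uses, had the strongest of these, with 6 input counts, 36 in ChIP replicate 1 and 38 in replicate 2. The transcription factor genes Erg (10 input counts, 28 and 21 ChIP counts) and Sox17 (7 input counts, 28 and 15 ChIP counts) had peaks within 1 kb of the TSS. Pecam1, Emcn, Cldn5, Vwf, Plvap, Lyve1, Aplnr, Apln, Fli1, Sox18, Tal1 and Gata2 had none nearest to them.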

How the data were processed

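NR2F2 ChIP-seq was read from 3 libraries, 2 ChIP replicates and 1 input, grouped by their labels, where the input carries no replicate number. The authors deposited, for every library, the raw count of reads in each 300 bp peak. Per the study's methods and processing notes, single-end reads of 75 bases were trimmed (Trim Galore 0.6.7), mapped to mm10 (Bowtie2), kept at a mapping quality of at least 5 and cleared of duplicates (Picard 1.110), which limits how high a count can rise. Peaks were called on the merged ChIP replicates with HOMER 4.11.1, resized, and cleared of blacklisted regions. The rule for counting a read into a peak was not stated in these sources, and sequencing depths were not used here.

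Peaks were placed against 45756 curated RefSeq transcripts of 26180 genes on GRCm38, the assembly of mm10, by the nearer edge, which left out 5 peaks on unplaced contigs. The counts were fitted with edgeR 4.0.16 (quasi-likelihood, TMM factors at peaks, limma 3.58.1, R 4.3.3) over all 10069 peaks and 3 libraries, two-sided, with Benjamini-Hochberg adjustment over all peaks. The single input was assumed to vary like the ChIP replicates, which the study's methods describe as biological replicates, so p-values rest on the spread between these 2 libraries. SE was derived from the log2 value and the F statistic. Raw ratios have exact 95% intervals from the binomial share of the counts (Clopper-Pearson), which cover counting error only. DESeq2 1.42.0 was an alternative. Other steps used Python 3.11.15, pandas 2.3.3, numpy 2.4.6 and scipy 1.17.1, and the fit was tested on simulated data.

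The member genes and the other gene lists were chosen with earlier results of these data known. Every member peak is named. Of the other lists, the gene with the highest summed ChIP count at a peak nearest to it and those with a peak within 1 kb of a TSS are named, along with Dll4's test, and genes with no nearest peak are named without values. Sequences were printed for the strongest nearest peak of each gene, with the replacement at Nrp1 and the added Efnb2 intron peak chosen after values were seen. Alternatives tried were other normalisations, DESeq2, robust fitting, an input minimum of 10 counts, other rules for members, 5 added to each count, other motifs and leaving out each ChIP replicate.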

Additional observations from a re-analysis of the deposited data

How the results depend on the processing

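No member peak was called above or below the typical peak under any alternative that gave a test, and none was called different between replicates. The alternatives were size factors of DESeq2 in edgeR, totals at peaks without TMM, DESeq2, robust fitting and at least 10 input counts. Robust fitting gave the member peaks the same values as the main fit, so it added no separate evidence. Members by nearest TSS alone are a subset of the main fit, so the absence of calls there followed from the main result. DESeq2 gave an adjusted p for 2 of the 16, and 4 of the 16 have at least 10 input counts. Over all peaks, the 154 called above and 5 below became 39 and 0 with the size factors of DESeq2, 102 and 7 without TMM, 22 and 0 with DESeq2 (9370 peaks had no adjusted p), and 58 and 4 among the 2427 peaks with at least 10 input counts. The number of member peaks fell from 16 to 10, at 7 genes, when predicted transcripts were included, because the 3 distal Efnb2 peaks, the distal peaks of Kdr and Nrp2 and the Prox1 peak were then nearest to another TSS. It was 14 with a 50 kb window or the nearest TSS alone. The median ratio was 3.15 with 5 added to each count, and 4.10 to 4.87 with 1 ChIP replicate left out. The motif count of 3 became 11 with the half-site and 1 with the relaxed repeat, the latter chosen after seeing the data. Of the log2 ratios, those of the Nrp1 peaks turned to 0.0633 (236 bp) and 0.168 (918 bp) with at least 10 input counts, where the distal Efnb2 peak was at 0.435 in place of 0.116 and Ephb4 at 0.927 in place of 0.609 (edgeR adjusted p = 0.351, unadjusted p = 0.0309, the 1 of 4 under 0.05, and Flt1 was not tested). With 1 ChIP replicate left out, the log2 ratio ran from -0.0442 to 0.428 at the Efnb2 promoter peak, from -0.0747 to 0.262 at the distal Efnb2 peak with 9 copies, from -0.311 to 0.114 at the Kdr promoter peak and from -0.358 to 0.00384 at the Nrp1 peak at 918 bp. The first and the last of these turned without replicate 2, and the other values without replicate 1. The fit with at least 10 input counts takes the typical peak of that subset as 0. All 4 member peaks in it rose by close to the same amount, the Nrp1 peaks through 0, so its values have another reference. No cause of the changes of sign with 1 ChIP replicate left out was tested. Every change of sign was of a value within 1 SE of 0. Leaving out a ChIP replicate leaves no residual degrees of freedom, so only values are given. No paired analysis was possible because the label of the input carries no replicate number. With a median of 7 input counts, the input limits the precision of each ratio.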
